A study of Mus musculus with 12 samples.

Results

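Ldhc (ENSMUSG00000030851) encodes the C subunit of lactate dehydrogenase, the form of the enzyme known from the testis. It is 1 of the 52636 genes in each of the count tables analysed here, and it was picked by name because its level with and without CGRP in these same libraries stood out. Its own levels and its own response to CGRP are therefore given as a description, with no test. The libraries came from bone marrow cells of C57BL/6J mice aged 8 to 12 weeks. Neutrophils were enriched with a commercial kit and, per the labels, used fresh, and monocytes isolated with a second kit were first kept for 3 days in M-CSF at 10 ng/ml, a growth factor under which monocytes become macrophages. The sample labels call the latter cells monocyte/macrophage, and they are called macrophages below. Each cell type was then exposed for 4 h to 1 nM CGRP, a neuropeptide of sensory nerves, or to PBS (saline, 0 nM CGRP). There were 3 libraries in each of the 4 groups, 12 in all, and no genotype beyond the strain is given for any of them. Neither the labels nor the methods say whether the 3 libraries of a group came from separate mice, so p-values measure only the spread between these libraries. Total counts were between 2002559 and 3631989 per library, so that a floor of 3 counts corresponds to between 0.826 and 1.5 CPM, the count relative to the total of its library.

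Lactate dehydrogenase interconverts pyruvate and lactate, using the NADH and NAD+ pair, and lets glycolysis continue by returning NAD+. The enzyme is an assembly of subunits. The A subunit (Ldha) is prominent in muscle and in glycolytic cells such as neutrophils, the B subunit (Ldhb) in heart, and the C subunit (Ldhc) in male germ cells, where it supports the energy metabolism of sperm. Ldhc is regarded as a gene of the testis, and mature neutrophils, which rely mostly on glycolysis, are not among the cells it is known for. CGRP binds a receptor made of CALCRL and RAMP1 that raises cyclic AMP, and cyclic AMP acts on transcription through factors that bind the cAMP response element (CRE).

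Ldhc lies on the plus strand of chromosome 7 at chr7:46861203-46878142 (GRCm38, GENCODE), where its longest transcript has 8 exons. Ldha lies next to it on the same strand, and its annotated end is 5575 bases upstream of the start of Ldhc. The stretches below, from the RefSeq promoter table of GRCm38.p6, are shown because they hold the motif matches described next. Capitals mark the full CRE (TGACGTCA), its shorter core (TGACG) and the GC box (GGGCGG), each searched on both strands, so that CCGCCC is a GC box on the minus strand. Each stretch is 110 bases long, on the plus strand. That of Ldhc, chr7:46861123-46861232, covers -140 to -31 from the RefSeq start and runs into the first exon that GENCODE gives. That of Ldha, chr7:46845694-46845803, covers -110 to -1 from the RefSeq start used and lies within the span that GENCODE gives for the Ldha gene, which begins at 46841475.

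Ldhc: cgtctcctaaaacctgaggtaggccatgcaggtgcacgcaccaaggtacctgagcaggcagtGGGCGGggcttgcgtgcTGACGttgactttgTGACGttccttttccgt

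Ldha: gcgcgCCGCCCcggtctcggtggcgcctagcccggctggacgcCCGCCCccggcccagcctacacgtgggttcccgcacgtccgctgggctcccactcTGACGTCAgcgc

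The Ldhc window, from 250 bases before to 50 after the RefSeq start, held no full CRE. It held 2 cores, at -61 to -57 and at -47 to -43 from that start, and a GC box at -78 to -73. GENCODE places the first exon of Ldhc further upstream, so that the first core spans that start and the second lies just inside the exon. The Ldha window held the full CRE at -12 to -5 and 3 GC boxes, 2 of them in the stretch shown. The Ldhb window held none of the 3 motifs, nor did a second RefSeq start of Ldhc, and a second start of Ldha held 1 core, at -143 to -139. Of the 32851 promoter windows in the table, 1.79% held a full CRE, 20.8% at least 1 core, 3.75% at least 2 cores that did not overlap, and 35.7% a GC box. These matches describe the letters of the windows and were not tested for binding.

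In neutrophils kept in PBS, Ldhc had 45, 51 and 42 counts in the 3 libraries, or 14.1, 15.6 and 15.1 CPM after TMM scaling over the 12 libraries. The exact 95% Poisson intervals of these counts reached from 30.3 to 67.1, and they cover counting error only. With CGRP, the counts were 615, 591 and 460, or 199.1, 172.5 and 200.7 CPM. Each neutrophil library with CGRP lay far above each library with PBS, and the lowest ratio between any such pair was 11.1 and the highest 14.3. The mean rose from 14.9 ± 0.78 to 191 ± 15.9 CPM (SD, n = 3 each), a difference of 176 CPM. In the limma-voom fit of the neutrophil libraries, the log2 fold change was 3.67 (SE 0.16), a 12.7-fold difference, which is described with no p-value because the gene was chosen on this contrast. The spread between PBS libraries (coefficient of variation 5.23%) was below what counting alone gives on average for counts of this size (14.7%), and with CGRP it was above it (8.31% against 4.24%).

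In macrophages, Ldhc was at the floor in every library. The 3 PBS libraries had 1, 0 and 0 counts and the 3 CGRP libraries had 0, 1 and 0. The upper exact Poisson limits of these 6 libraries were between 1.10 and 2.05 CPM, all below the lowest neutrophil library with PBS. The gene did not pass the low-count filter there, no fold change is given, and any response of macrophages to CGRP was not detectable at this depth. Counts were summed over the libraries of a group and set against their total counts after TMM scaling. The neutrophil to macrophage ratio was then 144 with PBS (138 counts against 1, exact 95% counting interval 25.4 to 5710). With CGRP it was 1500 (1666 counts against 1, interval 268 to 59100). The cell types also differ in isolation, medium and time in culture, which cannot be told apart from cell type here.

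**Figure D1:**
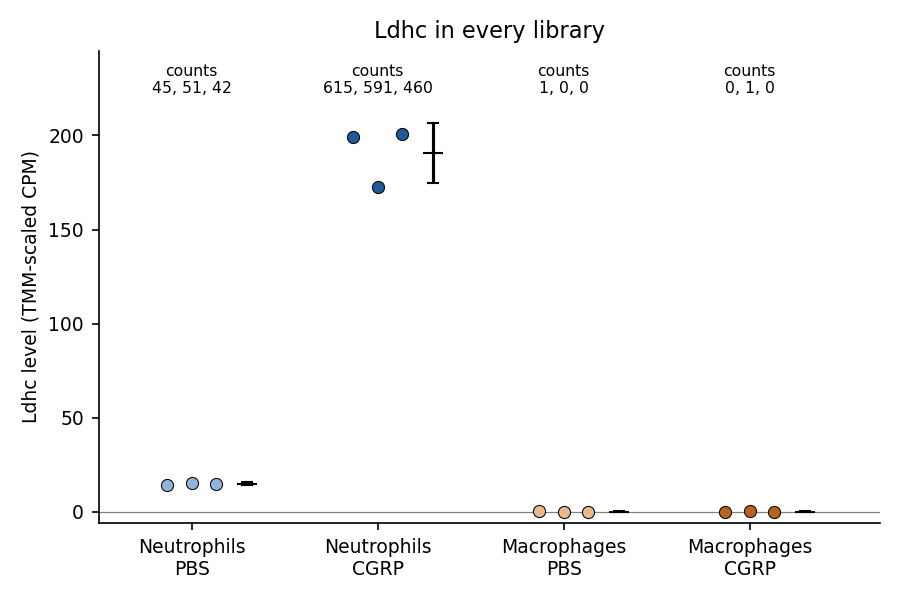
Ldhc level in each of the 12 libraries (points, TMM-scaled CPM on a linear axis), with the raw counts printed above and the mean ± SD of each group of 3 at the right of its points. Neutrophils with PBS lay between 14.1 and 15.6 CPM, neutrophils with CGRP between 172.5 and 200.7 CPM, and the macrophage libraries at 0 or 1 count.

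The other lactate dehydrogenase genes tested in neutrophils had log2 fold changes between -0.13 and 0.51, where the lower value, that of Uevld, ranged from -0.39 without CGRP replicate 2 to 0.13 without CGRP replicate 3. Across all genes tested in neutrophils, 248 of 9819 passed an adjusted p of 0.05 (2.53%, of which 148 were higher and 100 lower), and 1257 had an unadjusted p under 0.05. That number depended on single libraries: it was 138 without PBS replicate 1 or without PBS replicate 2, and 153 without CGRP replicate 2. Of the 5 other lactate dehydrogenase genes listed, 3 passed the low-count filter in neutrophils (Ldha, Ldhb and Uevld), and 1 of the 3, Ldha, passed the test. The median log2 fold change of the 3 was -0.02, and that of all genes tested was 0.00080.

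Ldha, the main subunit gene of these cells, had 2287, 2491 and 1955 counts in neutrophils with PBS and 3402, 3242 and 2390 with CGRP. In CPM it rose from 726 ± 31.7 to 1030 ± 78.3 (SD, n = 3 each), and the groups did not overlap. The log2 fold change was 0.51 (SE 0.08, adjusted p = 3.70e-04 by limma-voom), and it kept its side of the threshold without any single library. Ldhb had 111, 143 and 79 counts with PBS and 116, 108 and 82 with CGRP, and the groups overlapped. CGRP over PBS gave -0.02 on the log2 scale (SE 0.16, adjusted p = 0.986). Uevld, a gene with a lactate dehydrogenase-like domain joined to a ubiquitin-conjugating enzyme variant domain, stood at -0.13 (log2, SE 0.34, adjusted p = 0.927). Ldhd, the mitochondrial D-lactate dehydrogenase, had between 2 and 8 counts in a neutrophil library, and Ldhal6b had 0 counts in every library of both cell types.

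In macrophages, 698 of 9393 genes passed the test (7.43%, 325 higher and 373 lower), and the number was 347 without PBS replicate 1, 348 without CGRP replicate 2 and 439 without CGRP replicate 3. Neither Ldha nor Ldhb, the 2 lactate dehydrogenase genes that passed the filter there, was among them, by limma-voom, edgeR or DESeq2, although both had an unadjusted p under 0.05, as had 1860 of the 9393 genes. Ldha was at 939 ± 38.0 CPM with PBS and 1120 ± 20.6 with CGRP (0.26 on the log2 scale, SE 0.12, adjusted p = 0.227), with no overlap of the groups. Ldhb was at 72.4 ± 2.77 and 91.7 ± 8.14 CPM (log2 fold change 0.35, SE 0.14, adjusted p = 0.173), again with no overlap of the groups. The effect of CGRP on Ldha was not shown to differ between the cell types: the interaction in the fit of all 12 libraries was 0.24 (neutrophils minus macrophages, log2, SE 0.13, adjusted p = 0.455), where 252 of 10694 genes passed (2.36%).

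Between the cell types in PBS, 7263 of 10694 genes passed the test (67.9%). Against that background, Ldha was lower in neutrophils than in macrophages (log2 difference -0.37, SE 0.09, adjusted p = 1.32e-03), and so was Ldhb (-1.03, SE 0.15, adjusted p = 2.45e-06). Ldhc, given as levels alone, had the opposite order, with 14.9 CPM in neutrophils and 1 count in all macrophage PBS libraries together. Uevld had that order too, at 5.73 ± 0.216 CPM in neutrophils and 2.90 ± 0.0717 in macrophages with PBS. It is also given as levels alone, because it did not pass the low-count filter in macrophages.

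Levels of different genes were compared per kb of exonic length, although the libraries were primed at the poly-A tail, so that counts need not grow with length. In neutrophils with PBS, Ldha stood at 219 ± 9.58 CPM per kb, Ldhb at 22.7 ± 4.92 and Ldhc at 9.43 ± 0.494 (SD, n = 3), and the 3 sets of values did not overlap. With CGRP, the order was Ldha at 311 ± 23.7, Ldhc at 121 ± 10.0 and Ldhb at 22.3 ± 1.97 CPM per kb, so that Ldhc had moved above Ldhb. The order of the 3 genes in each group was the same in CPM without the length.

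**Figure D2:**
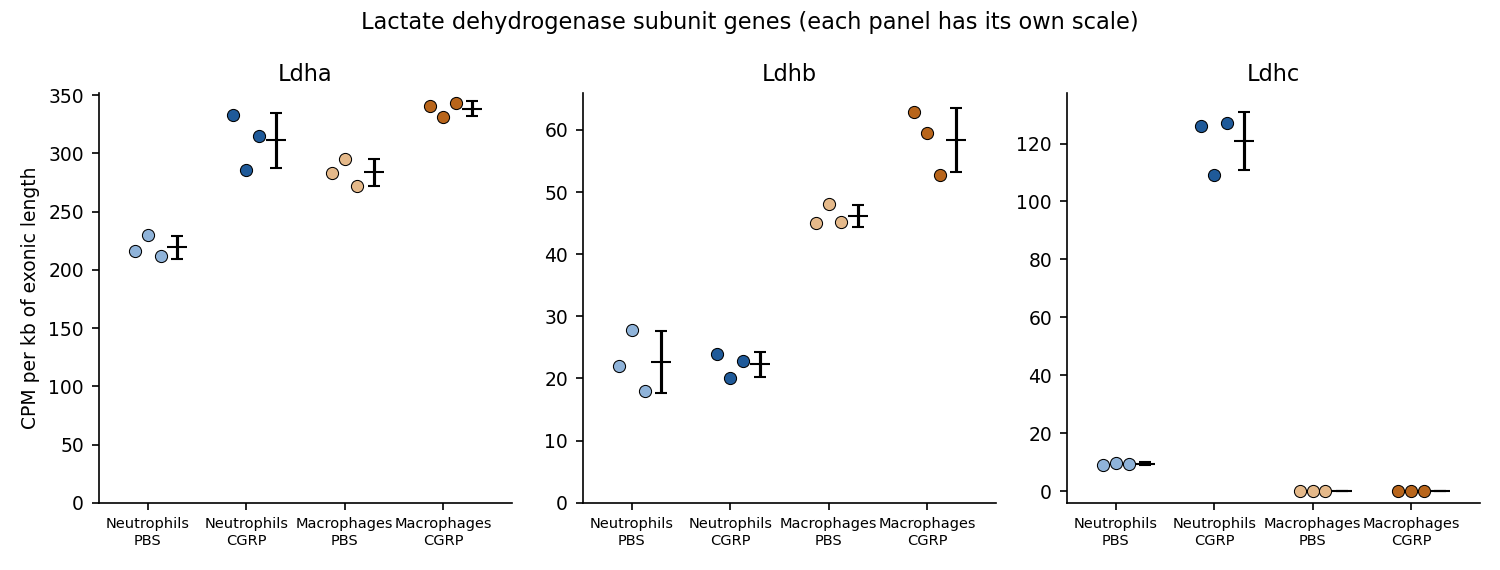
Ldha, Ldhb and Ldhc in each library (points, CPM per kb of exonic length), with mean ± SD of each group of 3, where each panel has its own linear axis. In neutrophils Ldhc moved from 9.43 to 121 CPM per kb with CGRP while Ldhb stayed near 22, and in macrophages Ldhc was at 0 or 1 count.

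A share within a library does not depend on the scaling between libraries. Ldhc made up 1.84%, 1.90% and 2.02% of the summed Ldha, Ldhb and Ldhc counts in the PBS neutrophil libraries and 14.9%, 15.0% and 15.7% in the CGRP libraries. The exact 95% binomial intervals of the first 3 lay between 1.35% and 2.72%, and those of the latter between 13.8% and 17.1%. The mean share was 1.92% ± 0.0926 with PBS and 15.2% ± 0.437 with CGRP (SD, n = 3 each). There were 2.06 ± 0.0902 Ldhc counts for every 100 Ldha counts with PBS and 18.5 ± 0.608 with CGRP. The share of Ldha was 93.5% ± 0.703 with PBS and 82.0% ± 0.448 with CGRP. The summed level of the 3 genes went from 776 ± 39.7 to 1256 ± 96.1 CPM, and Ldhc and Ldha both contributed to the difference. In macrophages, the upper exact 95% limits of the Ldhc share were between 0.0938% and 0.172% in the 6 libraries. For those with 0 counts, 3 counts would be 0.0763% to 0.124%.

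**Figure D3:**
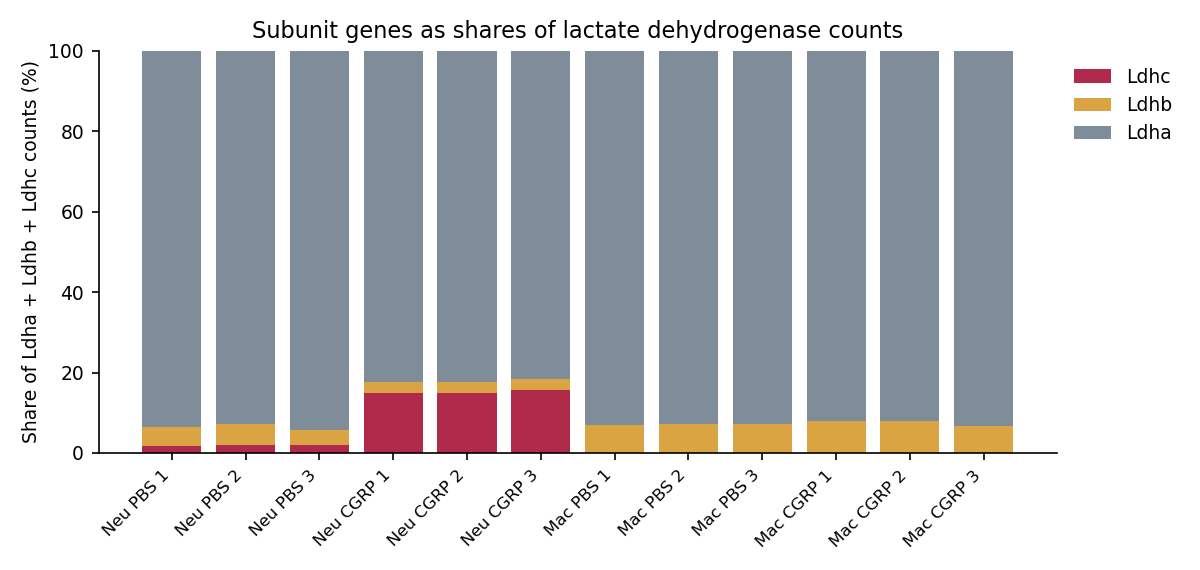
Shares of Ldha, Ldhb and Ldhc in the summed counts of the 3 genes, one bar per library, for neutrophils (Neu) and macrophages (Mac). The Ldhc part is between 1.84% and 2.02% in neutrophils with PBS, between 14.9% and 15.7% with CGRP, and too thin to see in macrophages.

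The sequence of Ldhc was set against those of its relatives, since shared reads could be split between genes. None of the 1340 sequences of 31 bases in its longest annotated transcript (1370 bases) occurred in another annotated gene, Ldha and Ldhb included. For Ldha, 34.2% of such sequences also occurred in processed copies (Gm5452, Gm9247 and Ldha-ps2), but none in its last 500 bases, where counts from poly-A priming fall. For Ldhb, 41.4% occurred in Gm5514, and 35.5% in the last 500 bases, so that its level is less certain. Gm5514 had at most 1 count in any library. How reads that fit both genes were counted is not given, so that low count does not show whether Ldhb lost reads. No annotated gene in the tables overlapped Ldhc.

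None of the genes tested around Ldhc had a change of its size. Within 250 kb on either side there were 31 other genes in the tables, of which 11 passed the filter in neutrophils and 9 in macrophages, and 20 passed in neither. In neutrophils 1 of the 11 passed the test, Ldha, against a background of 2.53%, and 4 had an unadjusted p under 0.05 (1257 of 9819 over all genes). In macrophages none of the 9 passed by limma-voom, edgeR or DESeq2, against a background of 7.43%, and 1 had an unadjusted p under 0.05 (1860 of 9393 over all genes). The nearest gene downstream, Tsg101, a component of the ESCRT sorting machinery, lies 10.8 kb away on the opposite strand. It was at 66.2 ± 7.31 CPM with PBS and 84.4 ± 1.93 with CGRP in neutrophils (log2 fold change 0.37, SE 0.11, adjusted p = 0.0925). The other neighbours tested in neutrophils had log2 fold changes between -0.71 (Hps5) and 0.62 (Gm32031). Both limits depended on single libraries: Hps5 was at -0.35 without CGRP replicate 1, and Gm32031 ranged from 0.18 without CGRP replicate 2 to 0.99 without PBS replicate 3. The rest were Sergef (-0.31), Saal1 (-0.40), the serum amyloid gene Saa3 (-0.21), Gtf2h1 (-0.25), Uevld (-0.13), Spty2d1 (0.29) and Tmem86a (-0.13), and none passed the test. With a library left out, Sergef ranged from -0.42 to -0.11 and Saa3 from -0.41 to -0.049. The serum amyloid genes Saa1 and Saa2 and the tryptophan hydroxylase gene Tph1 had 0 counts in every library.

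**Figure D4:**
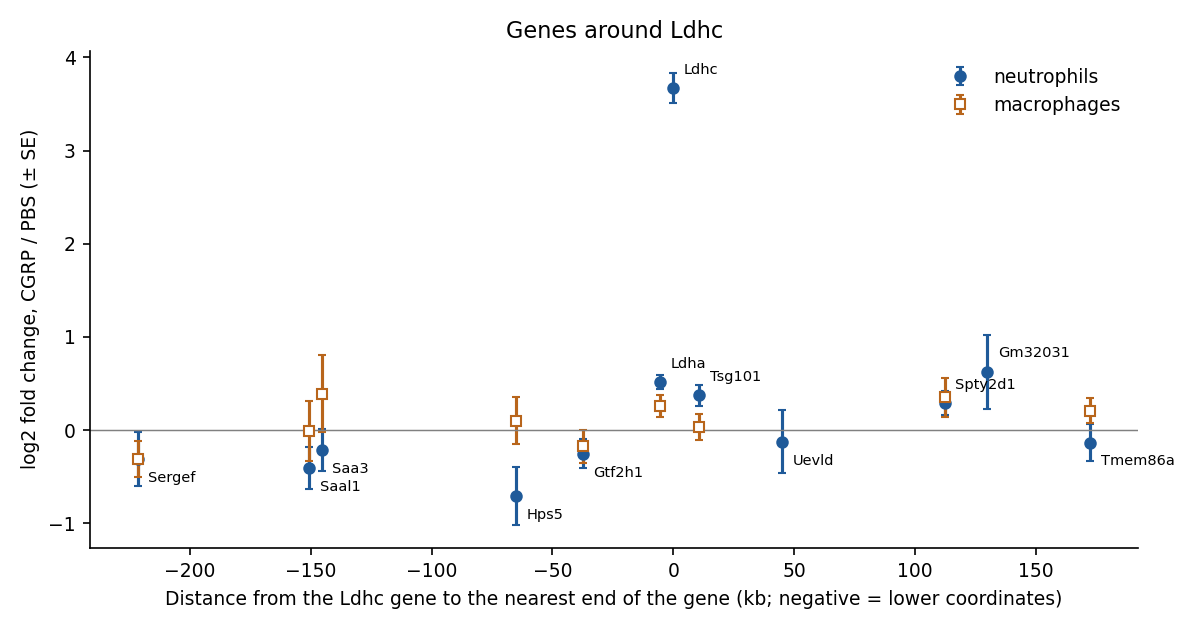
Log2 fold change (CGRP over PBS, ± SE, limma-voom) of Ldhc and of the genes within 250 kb that entered the test, against the distance in kb from the Ldhc gene to the nearest end of each gene, in neutrophils (filled circles) and macrophages (open squares). Ldhc stands at 3.67 in neutrophils, and the other genes lie between -0.71 and 0.62 there with all libraries (between -0.96 and 0.99 with a library left out).

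Other genes known from male germ cells were low in the same neutrophil libraries. Of 40 such genes, 22 had 0 counts in all 6 neutrophil libraries, among them the acrosomal protease gene Acr, the sperm fusion gene Izumo1, the sperm calcium channel genes Catsper1, Catsper3 and Catsper4, the meiotic genes Sycp1 and Dazl, and Ccna1. The list summed to 20.5, 20.8 and 26.6 CPM in the PBS libraries and to 17.2, 24.4 and 33.3 CPM in the CGRP libraries, so that the groups overlapped. Its most abundant gene was Acrbp, an acrosin-binding protein, at 8.09 ± 0.412 CPM with PBS and 7.46 ± 0.904 with CGRP (log2 fold change -0.12, adjusted p = 0.906). Acrbp and Smcp were the 2 members that passed the filter, and neither passed the CGRP test by limma-voom, edgeR or DESeq2 (background 2.53%), nor had an unadjusted p under 0.05. In macrophages 27 of the 40 had 0 counts. In PBS, Acrbp was at 8.09 ± 0.412 CPM in neutrophils and at 2.95 ± 1.60 CPM in macrophages. These levels are given with no test, because Acrbp did not pass the low-count filter in macrophages. Smcp, a protein of the sperm mitochondrial capsule, had 13, 9 and 5 counts in neutrophils with PBS and 21, 3 and 8 with CGRP, and 0 in every macrophage library. The protamine genes Prm1 and Prm2, Odf1 and Sycp2 also had 0 counts in every macrophage library. In a neutrophil library Prm1 had 2 to 5 counts, Odf1 1 to 11 and Sycp2 2 to 16. Prm2 had 8, 8 and 7 with PBS and 19, 2 and 2 with CGRP, so that CGRP replicate 1 held most of its CGRP counts.

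The testis isoforms of other energy enzymes were likewise low. Of 13 listed, Eno4, Pdha2, Gykl1 and Slc25a31 had 0 counts in all neutrophil libraries. In neutrophils with CGRP, 12 of the 13 had at most 3 counts in any library, the sperm glycolytic genes Pgk2 and Gapdhs among them. The exception was Cox6b2, a testis isoform of a cytochrome c oxidase subunit. It had 72, 69 and 33 counts with PBS and 62, 49 and 37 with CGRP, and the groups overlapped (log2 fold change -0.11, adjusted p = 0.907). Like Ldhc, Cox6b2 was higher in neutrophils than in macrophages in PBS, at 18.5 ± 5.79 against 2.96 ± 1.08 CPM (log2 difference 2.65, adjusted p = 2.82e-06, background 67.9%).

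A few of the genes that handle lactate and pyruvate passed the CGRP test. In neutrophils it was 1 of the 15 tested, against a background of 2.53%: Slc16a3, which encodes the lactate exporter MCT4. It had 288.6, 301.5 and 315.0 CPM with PBS and 567.9, 560.1 and 564.7 CPM with CGRP, with no overlap (log2 fold change 0.92, SE 0.08, adjusted p = 2.18e-07 by limma-voom). At an unadjusted p under 0.05 there were 3 of the 15 (1257 of 9819 over all genes). The median log2 fold change of the 15 was 0.15, against 0.00080 over all genes tested. In macrophages 3 of 16 passed (background 7.43%), and the median was 0.034. Slc16a3 rose from 34.7 ± 3.01 to 148 ± 30.7 CPM (log2 fold change 2.06, adjusted p = 1.97e-06) and Emb, an accessory protein of monocarboxylate transporters, rose by 1.15 on the log2 scale (adjusted p = 1.55e-05). Pdk1, a kinase that restrains pyruvate dehydrogenase, fell (-1.21, adjusted p = 2.31e-03). Without macrophage CGRP replicate 1, 5 of the list passed. The effect on Slc16a3 differed between the cell types (interaction -1.15, adjusted p = 1.12e-03).

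None of the 18 genes of cytosolic glycolysis tested in neutrophils passed by limma-voom, edgeR or DESeq2, nor did any of the 19 in macrophages, against backgrounds of 2.53% and 7.43%. At an unadjusted p under 0.05 there were 2 of the 18 (1257 of 9819 over all genes) and 1 of the 19 (1860 of 9393). The list summed to between 5180 and 5470 CPM in neutrophils with PBS and between 4800 and 5320 with CGRP, and its median log2 fold change was 0.02 in neutrophils and 0.0064 in macrophages. Of the shuttles that pass cytosolic NADH to mitochondria, none of 9 passed in neutrophils by the same 3 tools (background 2.53%) and 3 of 9 in macrophages (background 7.43%). In neutrophils 3 of the 9 had an unadjusted p under 0.05, where 1257 of 9819 genes did. In macrophages Got1, the cytosolic aspartate aminotransferase, rose by 2.45 on the log2 scale (adjusted p = 9.61e-09) and Gpd2, the mitochondrial glycerol-3-phosphate dehydrogenase, by 1.72 (adjusted p = 2.66e-05). Slc25a13, an aspartate and glutamate carrier, fell (-1.01, adjusted p = 0.0147). The last call was lost without PBS replicate 1 (adjusted p = 0.0873), without CGRP replicate 2 (0.128) and without CGRP replicate 3 (0.0505).

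**Figure D5:**
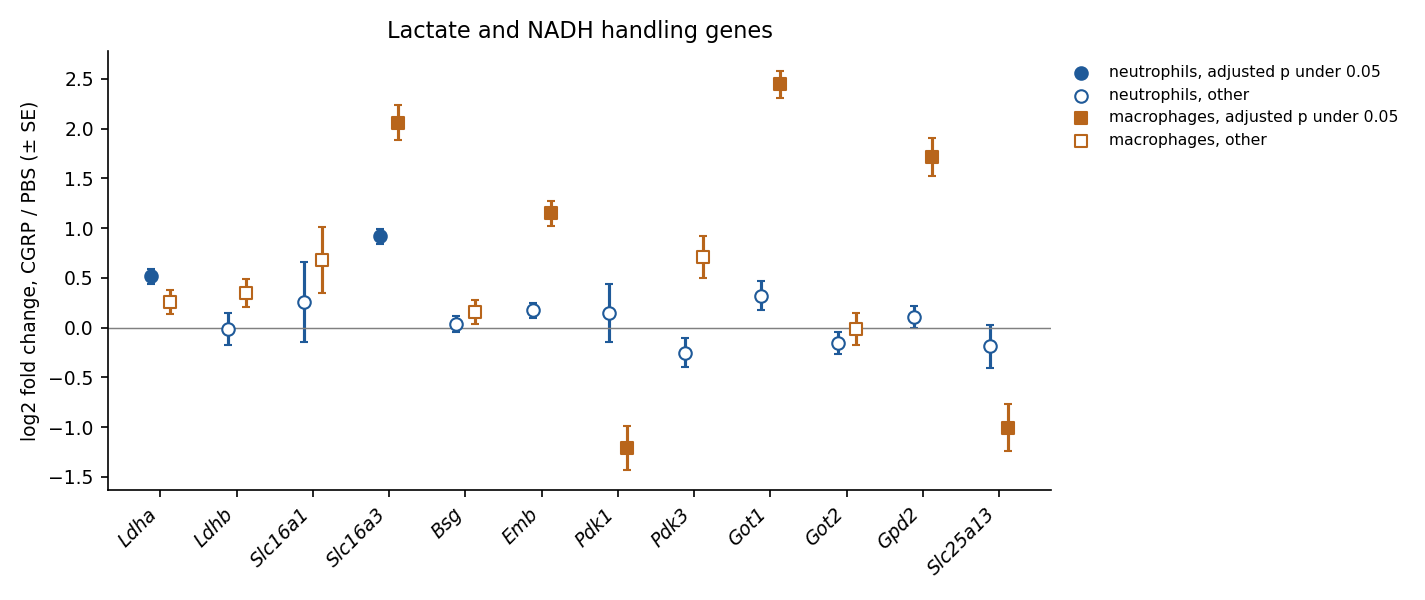
Log2 fold change (CGRP over PBS, ± SE, limma-voom) of genes that handle lactate, pyruvate and cytosolic NADH in neutrophils (circles) and macrophages (squares), filled where the adjusted p was under 0.05; the genes shown include every one of the lists of lactate dehydrogenases, of lactate and pyruvate handling and of NADH shuttles that passed in either cell type. In neutrophils Ldha (0.51) and Slc16a3 (0.92) were filled, and in macrophages Slc16a3, Emb, Pdk1, Got1, Gpd2 and Slc25a13.

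Of 19 early genes known to respond to cyclic AMP, 15 were tested in neutrophils, where 5 of the 15 passed, all higher (background 2.53%). The median log2 fold change of the 15 was 0.40, against 0.00080 over all genes tested. Nr4a2, an orphan nuclear receptor, went from 8.52 ± 0.251 to 23.7 ± 2.15 CPM (log2 fold change 1.47, adjusted p = 2.79e-04), and Fos, a subunit of AP-1, from 52.7 ± 6.58 to 128 ± 18.2 CPM (1.30, adjusted p = 1.69e-06). The phosphodiesterase gene Pde4b (0.60, adjusted p = 5.01e-03), the phosphatase gene Dusp1 (0.41, adjusted p = 0.0249) and the AP-1 subunit gene Junb (0.35, adjusted p = 0.0390) had smaller log2 fold changes. The number was 3 without PBS replicate 1, 2 without PBS replicate 2 and 3 without CGRP replicate 2. Without PBS replicate 2, Pde4b (adjusted p = 0.0633), Dusp1 (0.155) and Junb (0.258) missed the threshold. Dusp1 and Junb were also lost without PBS replicate 1 (0.0908 and 0.183) and without CGRP replicate 2 (0.0800 and 0.109). Dusp1 was lost without PBS replicate 3 (0.0655) and CGRP replicate 1 (0.0721) as well, and Junb without CGRP replicate 3 (0.138). With all libraries, Junb and Dusp1 also missed the threshold by DESeq2 (0.0626 and 0.0843) and in the single fit over 12 libraries (0.273 and 0.0932), so that 3 genes passed in each. Junb was lost with library totals (0.0528) too, and Dusp1 with no filter on low counts (0.0648) and with thinned counts (0.116).

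In macrophages 9 of 12 of these early genes passed, 8 of them higher and Atf3 lower (background 7.43%), and the median log2 fold change was 0.97. The 6 with the smallest adjusted p were Crem (log2 fold change 3.68), Pde4b (3.45), Atf3 (-2.17), Nr4a2 (4.22), Fosl2 (1.81) and Junb (1.08). Crem, a cAMP-responsive factor with a known role in male germ cells, had 32, 35 and 26 counts in neutrophils with PBS and 43, 67 and 47 with CGRP, where the groups did not overlap but it missed the threshold (log2 fold change 0.81, SE 0.23, adjusted p = 0.0692). In macrophages it had 50, 49 and 34 counts with PBS and 607, 447 and 358 with CGRP. In the same macrophage libraries Ldhc had at most 1 count, and a relation between Crem and Ldhc was not tested.

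The cell labels were checked against marker genes. The 13 neutrophil markers summed to between 159000 and 238000 CPM in neutrophil libraries and between 304 and 446 CPM in macrophage libraries (304 to 397 with PBS, 423 to 446 with CGRP), with S100a8 the most abundant (67000 CPM in neutrophils with PBS). The 13 monocyte and macrophage markers summed to 35700 to 40100 CPM in macrophages with PBS and 44400 to 51000 with CGRP, led by Apoe. The neutrophil libraries also held transcripts of other bone marrow cells. Monocyte markers summed to 4600, 4960 and 5350 CPM with PBS and 4140, 4150 and 5180 with CGRP (most abundant Ly6c2), erythroid markers to 5770, 6430 and 7380 and to 5890, 6000 and 7230 (Hbb-bs). B cell markers summed to 2290, 2360 and 2510 with PBS and 2280, 2370 and 2770 with CGRP (Igkc), and basophil, mast cell and eosinophil markers to 1520, 1690 and 1790 and to 1460, 1680 and 1730 (Prss34). The PBS and CGRP values of each of these 4 lists overlapped.

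Smaller lists in neutrophils were those of T and NK cells (114, 125 and 130 CPM with PBS, 82.6, 105 and 109 with CGRP, led by Nkg7), megakaryocytes and platelets (162 to 165 and 125 to 188, Pf4), stromal and endothelial cells (29.1 to 42.0 and 31.8 to 34, Col1a1) and progenitors (25.6 to 27.3 and 24.9 to 26.2, Cd34). The T and NK cell sum was lower in each CGRP library than in each PBS library, and its part in the Ldhc result was not tested. Of the 57 marker genes tested in neutrophils, over all the lists, none passed the CGRP test by limma-voom, edgeR or DESeq2, against a background of 2.53%. At an unadjusted p under 0.05 there were 9 (1257 of 9819 over all genes), namely 3 neutrophil markers, 3 monocyte and macrophage markers, 1 B cell, 1 T and NK cell and 1 progenitor marker. With no filter on low counts, 5 neutrophil markers and 2 monocyte and macrophage markers passed, and 1 neutrophil marker passed with library totals and with the replicate block. With the libraries left out in turn, 1 neutrophil marker and 1 monocyte and macrophage marker passed without PBS replicate 3 and without CGRP replicate 1. The platelet gene Gp1ba had 0 counts in every library, and in macrophages Cd79a, Ms4a1, Vpreb3, Cd3e, Cd3g, Ncr1 and Epx did. Because the libraries are bulk samples, which cells of the neutrophil preparation carried the Ldhc transcript was not tested, and fewer cells of a type and less RNA per cell cannot be told apart.

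In macrophage libraries the sums of 4 marker lists were higher in each CGRP library than in each PBS library: those of neutrophils and of monocytes and macrophages, given above, of T and NK cells (2.09 to 3.94 CPM with PBS, 6.26 to 8.02 with CGRP, led by Cd4) and of stromal and endothelial cells (4.58 to 6.81 and 9.06 to 12 CPM, Col1a1). The other 5 lists overlapped between the groups. The part of these differences in the CGRP results of macrophages was not tested. Among the single markers, Apoe (log2 fold change 0.46, adjusted p = 0.0263) and Cd4 (1.68, adjusted p = 0.0394) were the marker genes that passed, both higher with CGRP, and they were 2 of the 34 tested there (background 7.43%). Apoe was lost without PBS replicate 1 (adjusted p = 0.212), CGRP replicate 2 (0.133) and CGRP replicate 3 (0.151), and by the edgeR quasi-likelihood test (0.0732). Cd4 was lost without PBS replicate 1 (0.156) or 2 (0.202) and without CGRP replicate 1 (0.0647), 2 (0.0790) or 3 (0.115), and with all libraries by DESeq2 (0.137), with library totals (0.0541) and with thinned counts (0.101). Of the monocyte and macrophage markers, 2 passed without PBS replicate 3 and 3 without CGRP replicate 1. In the other lists, 1 neutrophil marker passed with the replicate block and without CGRP replicate 1. With no filter on low counts and in the single fit, 1 stromal and endothelial marker and 1 basophil, mast cell and eosinophil marker passed. The stromal and endothelial list also had 1 without PBS replicate 3, and the B cell list 1 in the single fit.

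The genes whose levels over the 12 libraries were most like those of Ldhc were taken by Pearson's r of log2 CPM among 7421 genes with a mean of at least 10 CPM. They were Dusp1 (r = 0.982), the kinase gene Map2k3 (0.979), the lamin gene Lmnb1 (0.976), Sbno1 (0.973) and Oscp1 (0.973). These values are a description, since the 12 libraries fall into 4 groups and share their scaling. The fold changes of these genes are given with no test because they were picked for a pattern set by the same contrast. The exception is Dusp1, whose test is given above because it is also on the list of early genes. None of the 5 had the range of Ldhc. Lmnb1 went from 59.0 ± 3.57 to 134 ± 12.9 CPM in neutrophils with CGRP (log2 fold change 1.20) and was at 12.3 ± 2.82 CPM in macrophages with PBS. Oscp1 went from 32.2 ± 2.99 to 82.1 ± 14.4 CPM (1.37) and was at 2.33 ± 0.783 CPM in macrophages with PBS. In neutrophils Map2k3 was at 0.40 and Sbno1 at 0.36 on the same log2 scale. Dusp1, Map2k3 and Sbno1 were at 83.6, 167 and 219 CPM in neutrophils with PBS. Their levels in macrophages with PBS were 47.2, 97.6 and 106 CPM, far above the floor. The choice of genes depended on the measure: Spearman's rho shared 1 of the 5 and a prior count of 0.5 in place of 2 shared 3 of the 5.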

How the data were processed

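RNA was sequenced from 12 libraries of mouse bone marrow neutrophils and macrophages, primed at the poly-A tail and tagged with unique molecular identifiers. The authors ran nfCore/RNAseq with UMI removal of PCR copies, STAR alignment to GRCm38 and gene counting by featureCounts. They deposited raw counts, without normalization, in one table per cell type. The annotation release and strand setting are not given in the sources used here. Columns were matched to samples by name.

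Each cell type was fitted on its own 6 libraries (edgeR filterByExpr, TMM, limma-voom, two-sided, Benjamini–Hochberg over all genes tested, threshold 0.05), and contrasts between cell types in one limma-voom fit of 12 libraries. Levels are CPM with one TMM scaling. Gene models came from GENCODE, in which 52403 identifiers were found, and promoters from RefSeq, matched by symbol. Genes named were the lactate dehydrogenases, tested genes within 250 kb, list members with an adjusted p under 0.05 (at most 6 per list and cell type), the most abundant and absent markers, and the 5 genes most like Ldhc. These, Ldhc and the lists were chosen with earlier results of these data known. Named outside this rule, with their values seen, were Pgk2, Gapdhs, Saa1, Saa2, Tph1, Smcp, Prm1, Prm2, Odf1, Sycp2, the processed copies, Crem and Cox6b2 in neutrophils, and Slc16a1, Bsg, Pdk3 and Got2 in the plot of lactate genes.

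DESeq2, the quasi-likelihood test of edgeR, library totals, DESeq2 size factors in limma-voom, other filters, a replicate block, a single fit, thinned counts and leaving out each library were the alternatives. The steps were tested on simulated data. Software was R 4.3.3, limma 3.58.1, edgeR 4.0.16, DESeq2 1.42.0, Python 3.11.15, pandas 2.3.3 and matplotlib 3.10.9.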

Additional observations from a re-analysis of the deposited data

Results flagged for a closer look

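Of 37 named genes tested for an unequal response to CGRP in neutrophils and macrophages, 12 passed an adjusted p of 0.05 in the limma-voom fit of all 12 libraries, where 252 of 10694 genes did (2.36%). Many of the 37 were named because they passed the CGRP test in a cell type, so that their share is not to be read against that background. Ldhc and the genes picked for a pattern like its own are left out of the 37, apart from Dusp1, which is also on the list of early genes. The differences below are neutrophils minus macrophages on the log2 scale. Among genes of lactate and NADH handling, it was -2.13 for Got1 (adjusted p = 4.84e-07), -1.62 for Gpd2 (adjusted p = 1.17e-04), -1.15 for Slc16a3 (adjusted p = 1.12e-03), -0.99 for Emb (adjusted p = 1.06e-04) and -0.97 for the pyruvate dehydrogenase kinase gene Pdk3 (adjusted p = 0.0478), a lower log2 fold change in neutrophils in each case. Among the early genes that respond to cyclic AMP, it was -2.88 for Crem (adjusted p = 1.29e-06), -2.86 for Pde4b (adjusted p = 1.98e-08), -2.75 for Nr4a2 (adjusted p = 3.74e-04), -1.66 for Fosl2 (adjusted p = 1.95e-04), -0.77 for Rgs2 (adjusted p = 0.0107) and -0.74 for Junb (adjusted p = 0.0168). Atf3 had the opposite sign, at 2.35 (adjusted p = 1.06e-05), and had fallen in macrophages.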

How the results depend on the processing

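The log2 fold change of Ldhc in neutrophils lay between 3.65 and 3.72 over 9 alternatives and between 3.63 and 3.74 when libraries were left out in turn, and the Ldha rise passed in all 15. No Ldhc fold change is given in macrophages under any alternative, because its counts were at or under the floor of 3. In the single fit over 12 libraries, 137 genes passed in neutrophils and 1050 in macrophages. With libraries left out, these numbers ranged from 138 to 234 and from 347 to 765. Ldhb in neutrophils changed sign with library totals (0.036) and ranged from -0.16 to 0.14 with libraries left out, and never passed. Among 626 values under the alternatives of named genes other than Ldha, Ldhb and those picked only for a pattern like that of Ldhc, 580 kept direction and side, 33 lost the call and 13 changed sign, all of the latter without a call: in macrophages Saal1 with the replicate block (0.0071), Hps5 with thinned counts (-0.051) and Tsg101 with library totals (-0.019). With a library left out, the ranges that crossed 0 were -0.39 to 0.13 for Uevld and -0.25 to 0.028 for Tmem86a in neutrophils. In macrophages they were -0.14 to 0.092 for Saal1, -0.013 to 0.68 for Saa3, -0.050 to 0.31 for Hps5, -0.025 to 0.096 for Tsg101 and -0.083 to 0.017 for Dusp1. Lmnb1, given with no test, ranged from -0.073 to 0.41 there. The cause was not tested.

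Nothing in the labels links same-numbered libraries, and the data did not show that the numbers pair them. Their deviations from the group means had correlations of 0.0421, -0.0108 and 0.143 in neutrophils and 0.0576, -0.183 and 0.28 in macrophages, and 3 of 6 libraries in each cell type correlated best with their own number. With the number as a replicate block, Ldhc was at 3.67, and 266 genes passed in neutrophils and 915 in macrophages.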
